A study of Mus musculus with 2 samples.

Results

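The Krüppel-like factor genes are described here in mouse erythroid progenitor cells. The members are the 10 genes Klf1, Klf2, Klf3, Klf4, Klf6, Klf7, Klf9, Klf10, Klf11 and Klf13, of 42462 annotated genes in the tables. They were chosen by their symbols and by no cut-off on a value, though earlier results of these data were known. The cells carry the label CFU-Ery and came from male C57BL/6J mice, 5 to 6 weeks old, through a progenitor isolation from bone marrow. Total RNA was sequenced from 1 group of 2 libraries, called biological replicates 2 and 1, with 1 ng of input RNA and added ERCC spike-in transcripts. The mice carried no stated allele or treatment, and no control group belongs to the design. The libraries share a donor record but have biosamples of their own, so the spread between them may be technical, and no test between groups was possible.

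Krüppel-like factors are zinc finger transcription factors that bind CACCC elements and related GC-rich sites through a conserved C-terminal zinc finger region, a site preference they share with the SP factors. Outside the fingers they differ, and so do their partners: some recruit coactivators, others the corepressors CtBP or SIN3. In red cell formation KLF1 activates globin, haem synthesis, membrane and cell cycle genes, and in mouse erythroid cells Klf3 is one of its targets, whose product represses genes through the same kind of site.

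The total expected count, an estimated number of reads assigned to all genes, was 110634458 in replicate 2 and 143491647 in replicate 1. Mitochondrially encoded genes held 88.32% of it in replicate 2 and 90.26% in replicate 1, and nuclear protein-coding genes held 3.70% and 3.29%, or 4093202 counts in replicate 2 and 4717790 in replicate 1. TPM, a level per transcript length scaled to a fixed total over all genes, is therefore small here for any nuclear gene, and levels are also given as rescaled TPM, in which the nuclear protein-coding genes alone sum to that total. Of the erythroid markers 10 of 10 were at 1 TPM or more in both libraries, against 12.6% of nuclear protein-coding genes. Among them were Slc4a1 at 136 ± 17.5 TPM and Kel at 76.3 ± 8.17 TPM (SD, n = 2). Granulocyte and monocyte markers were also abundant, and S100a9 at 211 ± 54.3 TPM and S100a8 at 204 ± 46.9 TPM stood above every gene of the erythroid list. Over 16 genes they summed to 678 ± 141 TPM, where the 10 erythroid genes summed to 497 ± 46.4 TPM. That erythroid list holds no globin gene. The adult globin genes, from Hba-a1 at 1237 ± 163 TPM to Hbb-bs at 2455 ± 237 TPM, each exceeded both sums. In bulk RNA, fewer cells of a type and less RNA per cell cannot be told apart.

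Klf3 and Klf1 were the leading members, and the other 8 lay well below them. Together this pair held 82.6 ± 1.87% of the summed TPM of the 10 genes (SD, n = 2). With the same Klf3 counts over a longer model, a lower bound described with their ratio, the share was 75.9 ± 1.85%. Klf13, Klf11, Klf6 and Klf10 followed at 0.66 to 1.14 mean TPM, and Klf2, Klf4, Klf7 and Klf9 were the lowest at 0.040 to 0.255 mean TPM. Of the 10 members, 3 reached 1 TPM in both libraries, namely Klf3, Klf1 and Klf13, against 12.6% of the 21461 nuclear protein-coding genes. Klf13 did so only with its retained-intron transcript counted. Its protein-coding transcript Klf13-201 alone had 0.76 TPM in replicate 2 and 0.81 TPM in replicate 1. Every member had 10 or more expected counts in both libraries, against 42.9% of nuclear protein-coding genes, and every member reached 1 rescaled TPM, against 44.6%. The median member stood at 0.665 ± 0.318 TPM, whereas the median nuclear protein-coding gene stood at 0.015 ± 0.00707 TPM. These comparisons depend on which Klf genes were listed. Of those left out, Klf12, Klf14, Klf15 and Klf17 had 0 counts in both libraries and Klf8 had 6 in replicate 2. Klf5 and Klf16 had 10 or more in both. The summed count of the members was 5968 in replicate 2 and 5974 in replicate 1, which is 145.8 and 126.6 per 100000 nuclear protein-coding counts.

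**Figure D1:**
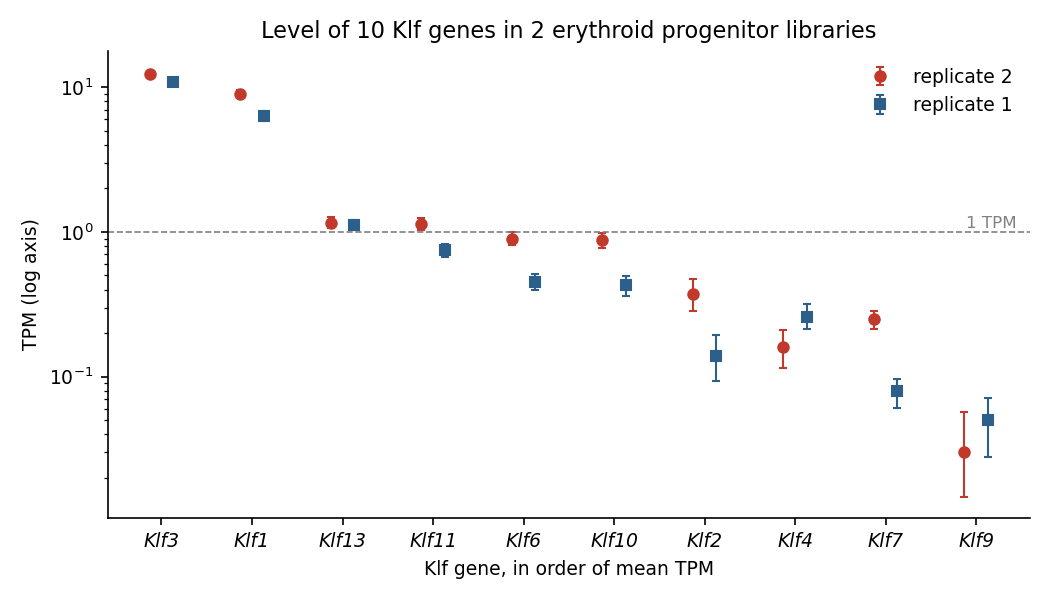
Level in TPM (log axis) of each of the 10 Klf genes in replicate 2 (circles) and replicate 1 (squares), with exact Poisson 95% intervals of the counts as bars, which cover counting error only. Klf3 and Klf1 lie above 6 TPM in both libraries, Klf13 just above 1 TPM, and Klf2, Klf4, Klf7 and Klf9 below 0.4 TPM in both.

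The start regions of Klf3 and Klf1 are shown because these are the leading pair and because the sites that the family binds can be read in them. Both runs are from RefSeq's promoter table on GRCm38.p6, on the plus strand, 5′ to 3′, and end at the base before the GENCODE start. Capitals mark the GC-box form CCNCNCCC, the element CACCC and the GATA factor core GATAA on either strand, and neighbouring matches can overlap.
Klf3, chr5:64803271-64803387: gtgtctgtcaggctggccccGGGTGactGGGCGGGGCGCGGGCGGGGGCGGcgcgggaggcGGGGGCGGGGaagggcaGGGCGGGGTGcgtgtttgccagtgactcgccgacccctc
Klf1, chr8:84901732-84901927: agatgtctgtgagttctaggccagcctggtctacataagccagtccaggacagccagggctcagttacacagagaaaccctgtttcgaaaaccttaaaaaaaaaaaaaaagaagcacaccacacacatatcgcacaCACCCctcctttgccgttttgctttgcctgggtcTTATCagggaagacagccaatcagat
The Klf3 run of 117 bases held 7 matches to the GC-box form and 2 to the CACCC element, at a GC content of 79.5%, and no match to the GATA core. The Klf1 run of 196 bases held 1 match to the CACCC element and 1 to the GATA core, at a GC content of 46.9%, and no match to the GC-box form. Full windows of 300 bases, from 250 before to 50 after the RefSeq start, were found for 9 of the members: Klf1, Klf2, Klf3, Klf4, Klf6, Klf7, Klf9, Klf11 and Klf13. CCNCNCCC occurred in 7 of these 9 windows, against 49.5% of the 32817 windows in the table. CACCC occurred in 6 of 9, against 57.5% of all windows, and the GATA core in 1 of 9, that of Klf1, against 25.4%. The most GC-rich window was that of Klf11, at 77.7%, and the least that of Klf1, at 51.3%, where the median of all windows was 52.7%. A match describes letters in the window and not a bound site.

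Klf3 (ENSMUSG00000029178.10, GRCm38 chr5:64803388-64832901, plus strand) encodes a repressor that recruits CtBP. It had 12.26 TPM in replicate 2 and 10.87 TPM in replicate 1, from 2741 expected counts (exact Poisson 95% interval 2639 to 2846) in replicate 2 and 3098 (2990 to 3209) in replicate 1. Its rescaled level was 453.7 in replicate 2 and 469.0 in replicate 1, so the libraries lay closer together on that scale, and it ranked 262nd and 260th among nuclear protein-coding genes. Klf3 took 46.9% of the summed TPM of the 10 genes in replicate 2 and 53.2% in replicate 1, shares that depend on its length as given with the ratio to Klf1.

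Klf1 (ENSMUSG00000054191.7, chr8:84901928-84905291, plus strand) encodes the erythroid activator of the family. It had 9.00 TPM in replicate 2 and 6.27 TPM in replicate 1, from 1297 counts (1227 to 1370) in replicate 2 and 1159 (1093 to 1228) in replicate 1. Its rescaled level was 333.0 in replicate 2 and 270.5 in replicate 1, and its rank among nuclear protein-coding genes was 358th and 480th. The higher value was in replicate 2 on both scales, and the counting intervals of the libraries met in the counts (1227 against 1228) but were apart in TPM, at 8.51 to 9.50 in replicate 2 and 5.91 to 6.64 in replicate 1. Klf1 took 34.4% of the summed TPM in replicate 2 and 30.7% in replicate 1.

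Klf3 stood above Klf1 1.36-fold in replicate 2 and 1.73-fold in replicate 1, a log2 ratio of 0.62 ± 0.246 (SD, n = 2), and the lower Klf3 library lay above the higher Klf1 library. This order depends on the length used for Klf3. Its leading transcript, Klf3-201, is 2314 nt long in the deposited tables and 5221 nt in GENCODE M21, and reads from the other 2907 bases were not counted. With the deposited counts over the longer model, Klf3 would stand at 5.36 TPM in replicate 2 and 4.84 TPM in replicate 1, and the log2 ratio to Klf1 would turn to -0.56 ± 0.265. The Klf3 share of the summed TPM would then be 27.8% in replicate 2 and 33.6% in replicate 1, and the Klf1 share 46.8% and 43.6%. These are lower bounds for Klf3, since the added bases bring length without reads, and the turned ratio follows from that length alone. Only Klf3 was lengthened, though Klf9 (4486 against 3263 nt) and Klf11 (4086 against 3974 nt) are also longer in GENCODE M21. By reads alone, with no division by length, Klf3 held 48.9 ± 4.19% of the members' counts and Klf1 held 20.6 ± 1.65%.

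Klf13, Klf11, Klf10 and Klf9 encode a branch of the family that represses through SIN3 corepressors. Klf13 (ENSMUSG00000052040.9, chr7:63886351-63938915, minus strand) had 1.16 TPM in replicate 2 and 1.12 TPM in replicate 1, from 525 and 701 counts. Klf11 (ENSMUSG00000020653.7, chr12:24651274-24662789, plus strand) had 1.14 TPM in replicate 2 and 0.75 TPM in replicate 1, from 450 and 380 counts. Klf13 was nearly level between the libraries and Klf11 was higher in replicate 2, where this pair could not be separated. Klf10 (ENSMUSG00000037465.9, chr15:38291463-38300706, minus strand), known as a gene induced by TGF-beta, had 0.88 TPM in replicate 2 and 0.43 TPM in replicate 1, from 263 and 164 counts. Klf9 (ENSMUSG00000033863.1, chr19:23141226-23168134, plus strand), a hormone-responsive member, was the lowest, at 0.03 TPM in replicate 2 and 0.05 TPM in replicate 1. Those values rest on 10 counts (4.80 to 18.4) in replicate 2 and 19 counts (11.4 to 29.7) in replicate 1, intervals that overlap. Within this branch, Klf13, with all its transcripts counted, exceeded Klf9 by a log2 ratio of 4.88 ± 0.557. Klf11 exceeded Klf10 by 0.59 ± 0.303. The SIN3 corepressor gene Sin3a had 3.37 TPM in replicate 2 and 1.71 TPM in replicate 1, but 572 and 680 counts, with an estimated length of 1779 nt in replicate 2 and 3152 nt in replicate 1.

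Klf6, Klf2, Klf4 and Klf7 encode activators and context-dependent regulators best known outside the red cell lineage. Klf6 (ENSMUSG00000000078.6, chr13:5861482-5870394, plus strand), broadly expressed and responsive to injury, had 0.90 TPM in replicate 2 and 0.45 TPM in replicate 1, from 378 and 245 counts. Klf2 (ENSMUSG00000055148.7, chr8:72319033-72321656, plus strand), which in mouse acts in embryonic globin expression, endothelium and resting T cells, had 0.37 TPM in replicate 2 and 0.14 TPM in replicate 1. Its counts were 65 (50.2 to 82.9) in replicate 2 and 31 (21.1 to 44.0) in replicate 1. Both genes were higher in replicate 2. The Klf2 count intervals, which are not scaled for depth and cover counting error only, did not overlap. Klf4 (ENSMUSG00000003032.8, chr4:55527143-55532466, minus strand), known from monocyte differentiation and pluripotency, had 0.16 TPM in replicate 2 and 0.26 TPM in replicate 1, from 47 (34.5 to 62.5) and 100 (81.4 to 121.6) counts. Klf4 thus ran the other way, with the higher level in replicate 1. Klf7 (ENSMUSG00000025959.9, chr1:64029447-64122282, minus strand), known from mouse nervous system development, had 0.25 TPM in replicate 2 and 0.08 TPM in replicate 1. Its counts were 191.7 (165.8 to 221.2) in replicate 2 and 76.7 (60.8 to 96.2) in replicate 1. Klf1 exceeded Klf2 24.3-fold in replicate 2 and 44.8-fold in replicate 1, and exceeded Klf4 56.3-fold in replicate 2 and 24.1-fold in replicate 1.

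By mean TPM the order was Klf3, Klf1, Klf13, Klf11, Klf6, Klf10, Klf2, Klf4, Klf7 and Klf9. Of the 9 pairs of neighbours, 4 were apart beyond the spread of the libraries: Klf3 over Klf1, Klf1 over Klf13, Klf10 over Klf2, and Klf7 over Klf9. Counting intervals still overlapped for Klf10 in replicate 1 (0.364 to 0.497 TPM) and Klf2 in replicate 2 (0.284 to 0.469 TPM). They also overlapped for Klf7 (0.061 to 0.097 TPM) and Klf9 (0.028 to 0.072 TPM) in replicate 1. With the deposited Klf3 counts spread over the longer model, Klf1 came first, at the log2 ratio of -0.56 ± 0.265 given above. That setting is a lower bound for Klf3 and does not show which order holds. Klf13 and Klf11, Klf11 and Klf6, Klf6 and Klf10, Klf2 and Klf4, and Klf4 and Klf7 overlapped in TPM. On the rescaled scale Klf13 over Klf11 was apart as well, narrowly, with the lowest Klf13 value at 42.9 and the highest Klf11 value at 42.2. These Klf13 values include its retained-intron transcript. The protein-coding Klf13-201 alone averaged 0.785 TPM, below the 0.945 TPM of Klf11. The rank was the same in both libraries for 7 of the 10 genes, and ranks 7 to 9 were Klf2, Klf7 and Klf4 in replicate 2 but Klf4, Klf2 and Klf7 in replicate 1. Over all 45 pairs of members, 38 were apart and 7 overlapped.

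The 10 genes have 21 annotated transcripts in the tables, of which 12 had counts. Klf1, Klf2, Klf6, Klf9 and Klf10 have 1 transcript each. For Klf4, Klf7 and Klf11 the leading transcript held 100% of the gene's TPM in both libraries by the deposited maximum likelihood values. Klf3-201, the longer form, held 98.5% of Klf3 TPM in replicate 2 and 97.0% in replicate 1, on its deposited length of 2314 nt. The remainder was Klf3-202, a form of 1562 nt whose annotated start lies 8951 bases downstream, with 27.4 counts in replicate 2 and 60.8 in replicate 1. Klf13 was the most divided. Klf13-201, a protein-coding transcript of 6400 nt, held 65.4% of its TPM in replicate 2 and 72.1% in replicate 1. The rest was Klf13-203, a retained-intron transcript of 934 nt with 33 counts in each library. Since it is short, those counts gave 31.3 ± 4.70% of the TPM but 5.50 ± 1.12% of the reads. Of its bases, 862 lie in no other Klf13 transcript, and total RNA includes unspliced RNA. Whether these reads came from a mature transcript was not tested.

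**Figure D2:**
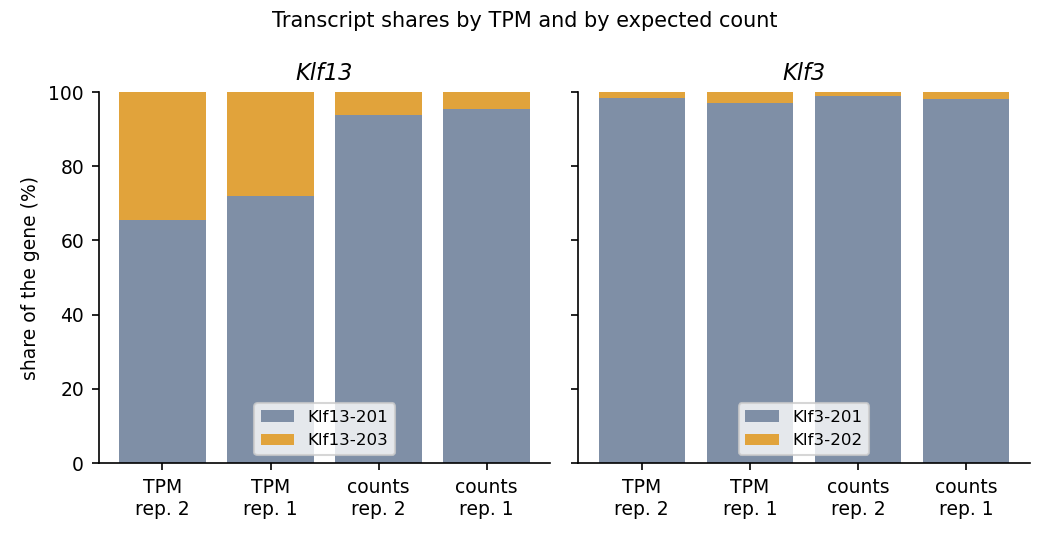
Share in percent of each gene's TPM and of its expected counts held by each transcript with counts, for Klf13 (left) and Klf3 (right), in replicate 2 and replicate 1. The retained-intron transcript Klf13-203 holds 34.6% of TPM in replicate 2 and 27.9% in replicate 1, but 6.29% and 4.71% of counts.

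Whole-number counts, within 0.001 of a count, were found in both libraries for 9 of the 10 genes, all but Klf7. Klf7 overlaps the antisense lincRNA gene Gm26649 over 3196 exonic bases, and the counts of the pair summed to 205.00 in replicate 2 and 82.00 in replicate 1, so that reads were divided between them. Strand use in the counting is unknown, so Klf7 and antisense reads cannot be told apart and its level is uncertain. In the GENCODE M21 transcripts 41.6% of the 25-base words of Klf7 occur in transcripts of other genes on either strand, against 8.16% for Klf3 and at most 3.13% for the other members. At most 0.298% of a member's words occur in another member.

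The libraries were compared by log2 ratios of expected counts plus 1, replicate 2 over replicate 1, after removing the median of -0.21 over the 9820 genes with a mean count of at least 20. This compares 1 library with 1 library and has no test. Over 2-fold apart were 2 of the 9 members with enough counts, Klf7 at 1.52 and Klf2 at 1.26, both higher in replicate 2, against 18.1% of all genes (8.81% higher in replicate 2 and 9.34% higher in replicate 1). Klf2 lies in the range of 20 to 100 counts, where 34.9% of genes were that far apart and 16.8% with the higher value in replicate 2, and 74.6% of genes in that range had a smaller difference. Klf7 lies in the range of 100 to 1000 counts, where 6.32% were that far apart and 3.17% with the higher value in replicate 2, and 99.0% had a smaller difference. In the same range Klf10 at 0.89, Klf6 at 0.84, Klf11 at 0.46 and Klf13 at -0.20 stayed within 2-fold, although scaling on the ERCC counts, which shifted the median of all genes by 0.62, put Klf10 at 1.51, Klf6 at 1.46 and Klf11 at 1.08 over 2-fold and turned Klf13 to 0.42. Klf1 at 0.38 and Klf3 at 0.04 belong to genes over 1000 counts, of which 0.222% were over 2-fold apart, and 89.1% of those genes differed less than Klf1 did. Klf4 was at -0.86, and Klf9 had too few counts. Of the 9 members 7 were higher in replicate 2, with a median of 0.46 where the median of all genes was set to 0.

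**Figure D3:**
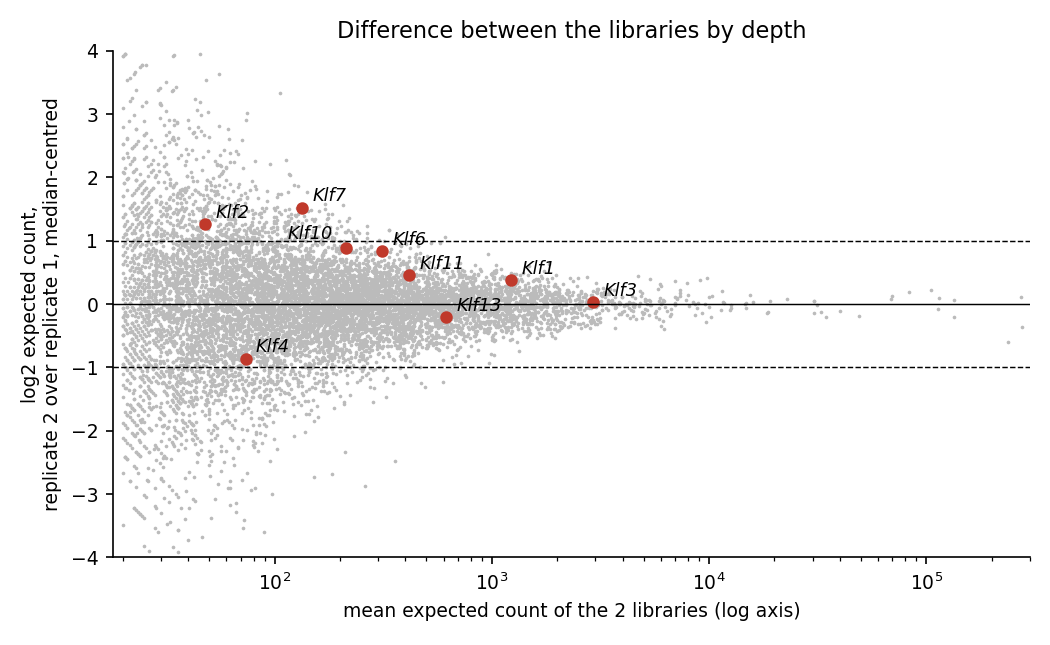
Log2 ratio of expected counts, replicate 2 over replicate 1, centred on the median, against the mean expected count (log axis) of the 2 libraries, for genes with a mean count of at least 20 (grey) and the 9 Klf genes among them (red). Dashed lines mark 2-fold; 83 genes beyond ±4 and 14 to the right of the axis are not drawn, and Klf7 and Klf2 lie above the upper line.

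Early response genes, transcripts that many cells raise within minutes of a stimulus such as isolation, were set beside the responsive members Klf2, Klf4, Klf6 and Klf10. Of 13 listed genes 3 reached 1 TPM in both libraries, against 12.6% of nuclear protein-coding genes. The 3 were the antiproliferative gene Btg2 at 4.32 TPM in replicate 2 and 4.39 TPM in replicate 1, the phosphatase gene Dusp1 at 3.68 TPM in replicate 2 and 3.30 TPM in replicate 1, and the mRNA decay gene Zfp36 at 1.91 TPM in replicate 2 and 1.36 TPM in replicate 1. Of the 12 with enough counts, 6 were higher in each library, with a median log2 ratio of -0.03, and Jun at -1.10 was the one over 2-fold apart. The early response genes went both ways between the libraries, from -1.10 to 0.69. The part of a response to isolation in the levels of Klf2, Klf4, Klf6 and Klf10 was not tested.

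Markers of other cells that express Klf2, Klf4 or Klf6 were present in both libraries. For the counts that follow, 12.6% of nuclear protein-coding genes reached 1 TPM in both. Of the granulocyte and monocyte markers 11 of 16 reached 1 TPM in both, with a summed level of 777.4 TPM in replicate 2 and 577.8 TPM in replicate 1, led by the neutrophil genes S100a9 and S100a8 given above. Of the macrophage markers 7 of 12 did, summing to 19.9 TPM in replicate 2 and 14.8 TPM in replicate 1, led by C1qb and Vcam1. Of the 11 with enough counts, 10 were higher in replicate 2 after centring, against 4910 of all 9820 genes. No marker of these lists was at 0 counts in both libraries. B lymphoid markers reached 1 TPM in 5 of 10 cases, summing to 25.1 TPM in replicate 2 and 23.3 TPM in replicate 1, led by Ighm and Cd74. T and NK markers did so in 2 of 10, led by Nkg7, summing to 6.65 TPM in replicate 2 and 5.12 TPM in replicate 1, with Cd8a at 0 counts. Stromal and endothelial markers did so in 0 of 8, summing to 1.42 TPM in replicate 2 and 1.58 TPM in replicate 1. Among these Kdr, Tek and Nos3 were at 0 counts, and Cxcl12 and Pecam1 led. Stem and progenitor markers, led by Kit and Gata2, summed to 1.10 TPM in replicate 2 and 1.14 TPM in replicate 1, with Procr at 0 counts and 0 of 8 at 1 TPM in both libraries. Megakaryocyte markers summed to 3.53 TPM in replicate 2 and 2.43 TPM in replicate 1, and 0 of 8 reached 1 TPM in both, though Pf4 did in replicate 2 at 1.21 TPM and Gp9 in replicate 1 at 1.53 TPM. The erythroid markers summed to 530.2 TPM in replicate 2 and 464.6 TPM in replicate 1. On rescaled TPM the order of the libraries turned for the erythroid sum, at 19621 in replicate 2 and 20044 in replicate 1, and for the B lymphoid sum, at 927.7 in replicate 2 and 1004 in replicate 1. The part of such cells in the levels of Klf2, Klf4 and Klf6 was not tested.

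Of the 16 other KLF and SP genes, 4 reached 1 TPM in both libraries, against 12.6% of nuclear protein-coding genes. All 4 were SP genes. Sp3 had 5.22 TPM in replicate 2 and 5.14 TPM in replicate 1, below Klf1 in both libraries, below Klf3 on the deposited length, and above the remaining members. Sp1 had 3.26 TPM in replicate 2 and 1.92 TPM in replicate 1, Sp2 1.72 and 1.26 TPM, and Sp4 1.48 and 1.01 TPM. SP factors read the same GC-rich sites, and Klf1 exceeded Sp1 by a log2 ratio of 1.59 ± 0.171. Klf3 exceeded Sp3 by 1.16 ± 0.107 on the deposited lengths. That ratio had a lower bound of -0.03 ± 0.0881 with Klf3 on its longer model and Sp3 as deposited. Sp1 had 1859 counts in replicate 2 and 1921 in replicate 1, with a shorter estimated length in replicate 2 (5661 against 7711 nt). Klf5 was the highest of the others by mean TPM, at 0.24 TPM in replicate 2 and 0.26 TPM in replicate 1. Klf12, Klf14, Klf15, Klf17, Sp5, Sp6, Sp7, Sp8 and Sp9 had 0 counts in both libraries, so that the median of the list was 0 TPM. Klf8, which in mouse erythroid cells is activated by KLF1 and repressed by KLF3, had 6 counts in replicate 2 and 66 counts in replicate 1, or 0.01 and 0.11 TPM.

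Among genes of cofactors, 8 of 12 reached 1 TPM in both libraries, against 12.6% of nuclear protein-coding genes. Ctbp1, a corepressor gene whose product binds KLF3, had 4.69 TPM in replicate 2 and 4.90 TPM in replicate 1. Its paralogue Ctbp2 had 0.08 TPM in replicate 2 and 0.09 TPM in replicate 1, from 8 and 21 counts. Klf3 exceeded Ctbp1 by a log2 ratio of 1.27 ± 0.167, with a lower bound of 0.09 ± 0.149 for Klf3 on its longer model. Klf3 exceeded Ctbp2 by 7.09 ± 0.243, or by 4.94 ± 0.0700 on the posterior mean TPM, in which Ctbp2 stood at 0.41 in replicate 2 and 0.34 in replicate 1. Tal1 and Gata1, erythroid factors found with KLF1 at many regulatory sites, averaged 6.24 ± 1.17 TPM and 5.81 ± 0.184 TPM. Klf1 stood close to both, at a log2 ratio of 0.28 ± 0.0972 over Tal1 and 0.37 ± 0.414 over Gata1, the second smaller than its SD. The coactivator and remodelling genes were lower, with Ep300 at 2.67 ± 0.438, Kat2b at 1.75 ± 0.0424, Smarcb1 at 1.51 ± 0.163 and Smarca4 at 1.39 ± 0.332 TPM. Crebbp missed the minimum in 1 library, with 1.49 TPM in replicate 2 and 0.99 TPM in replicate 1.

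**Figure D4:**
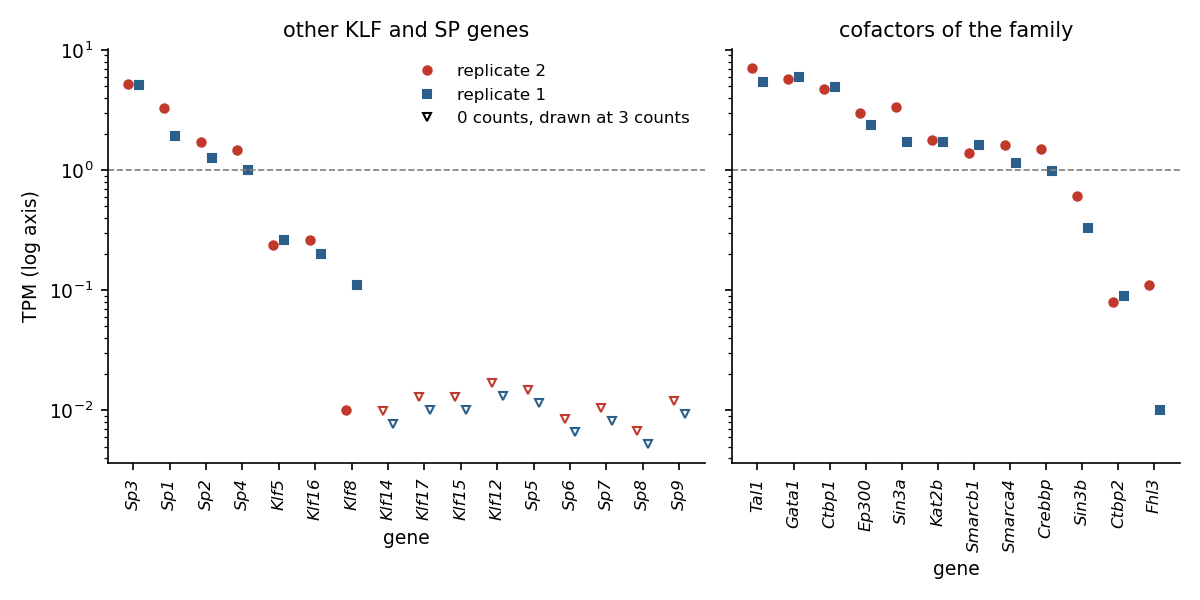
Level in TPM (log axis) of the 16 other KLF and SP genes (left) and 12 cofactor genes (right) in replicate 2 (circles) and replicate 1 (squares). Open triangles are genes with 0 counts in a library, drawn at the level that 3 counts would give, and the dashed line marks 1 TPM, which Sp3, Sp1, Sp2 and Sp4 reach in both libraries.

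Genes listed here as KLF1-dependent were abundant. Of 36 listed, 30 reached 1 TPM in both libraries, with a median of 14.3 ± 1.79 TPM, beside the 12.6% and the median of 0.015 ± 0.00707 TPM over all nuclear protein-coding genes. The adult globin genes led, with Hbb-bs at 2455 ± 237, Hba-a2 at 2190 ± 394, Hbb-bt at 1267 ± 211 and Hba-a1 at 1237 ± 163 TPM. Each globin pair has near-identical copies, so the division of reads within a pair is uncertain. The anion exchanger gene Slc4a1 and the blood group gene Kel, given above, followed. At the other end, the globin repressor genes Zbtb7a and Bcl11a averaged 0.84 ± 0.0566 and 0.57 ± 0.0141 TPM, and Bcam, a blood group adhesion gene, had 0 counts in both libraries. Klf8 was the next lowest after Bcam. A high level here describes these cells and does not show that KLF1 caused it, since KLF1 was not varied. The list was also chosen with earlier results of these data known.

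**Figure D5:**
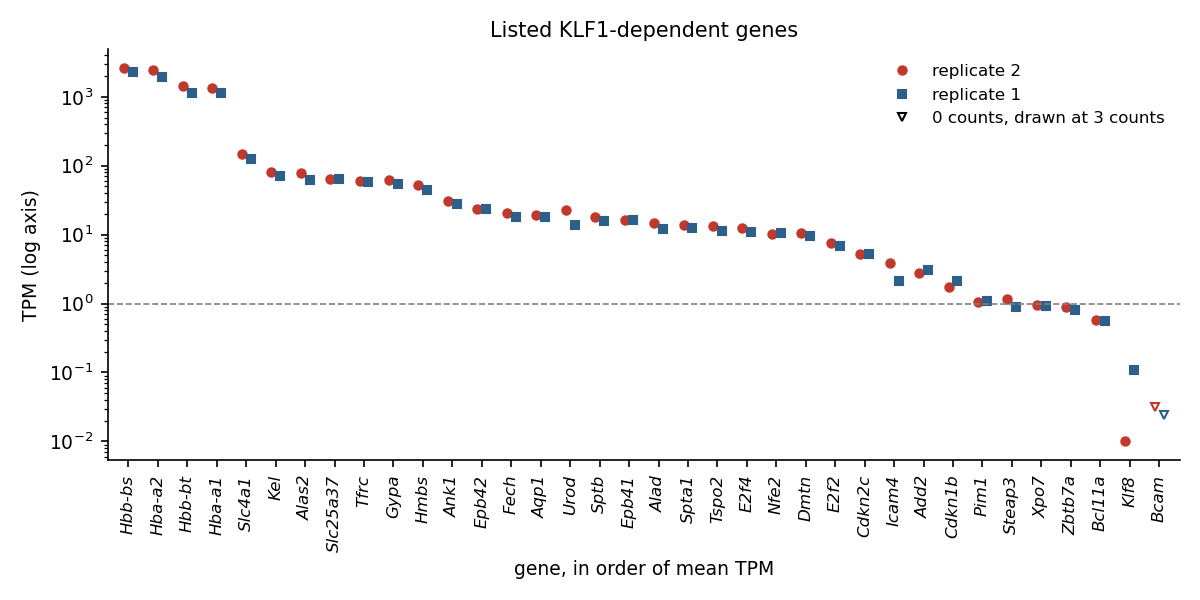
Level in TPM (log axis) of 36 genes listed as KLF1-dependent, in order of mean TPM, in replicate 2 (circles) and replicate 1 (squares). The 4 adult globin genes lie above 1000 TPM in both libraries, the dashed line marks 1 TPM, and Bcam with 0 counts is drawn as open triangles at the level that 3 counts would give.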

How the data were processed

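Total RNA tables of 2 libraries were used. Per the file headers, the deposited expected counts are reads estimated for each gene or transcript, the deposited TPM and FPKM values are scaled by length and library, and the deposited isoform percent is a transcript's share of its gene's TPM. The deposited posterior mean TPM served as an alternative, and the deposited credibility bounds were treated as a score and not used. The deposited FPKM values served only as an alternative. The authors quantified on mm10 with GENCODE M4, per the labels; not given in the sources used here were the aligner, the counter and strand use. Replicates were not pooled.

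Of 69691 rows, 43346 were Ensembl genes, and 42462 matched GENCODE M21 on GRCm38 by identifier, of which 21461 were nuclear protein-coding. Rows that name no gene held 8 counts in replicate 2 and 0 in replicate 1 and were left out. The minimum for detection was 1 TPM. Levels are given per library and as mean ± SD. Counting intervals are exact Poisson at 95% and cover counting error only. Neighbours in an order were called apart where the lower library of the higher gene exceeded the higher library of the lower gene. Between libraries, genes averaging 20 or more expected counts were used with 1 count added. The scaling was replaced by edgeR TMM, DESeq2 size factors on rounded expected counts and the ERCC counts (2291 in replicate 2 and 4084 in replicate 1). The median-centred comparison was tested on simulated data that held counting noise only, so that test does not cover other spread between the libraries. The other scalings were not tested. Promoter windows and motifs came from RefSeq's table, and protein sequences were not analysed here.

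The members, gene lists and tests were chosen with earlier results of these data known. All 10 members were named, every other KLF, SP or cofactor gene at 1 TPM and the highest that was not, the 6 highest and 4 lowest genes of the KLF1 list, the 3 highest early response genes, the 2 highest of each marker list, and transcripts with at least 10% of a member's TPM. A marker gene that the rule takes is not reported here. Klf3-202, Klf12, Klf14, Klf15, Klf17, Sp5, Sp6, Sp7, Sp8, Sp9, Ctbp2, Jun, Cd8a, Kdr, Tek, Nos3, Procr and the overlapping gene Gm26649 were named after their values were seen. Software was edgeR 4.0.16 and DESeq2 1.42.0 in R 4.3.3, with scipy 1.17.1, pandas 2.3.3 and numpy 2.4.6 in Python 3.11.15 and plots from matplotlib 3.10.9.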

Additional observations from a re-analysis of the deposited data

How the results depend on the processing

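Of the values computed under other settings for the main results, 46 were labelled as kept, 15 as moved and 1 as reversed. A share or ratio was kept if it lay within 1 SD of the main value. A count was kept if it stayed within a set fold of the main count, so it need not be equal. A share or ratio from 1 library alone always meets the SD rule, so leaving out a replicate could not move it. Members at 1 or more in both libraries numbered 10 on rescaled TPM and 10 by a minimum of 10 counts, against 44.6% and 42.9% of nuclear protein-coding genes. The Klf1 share was 20.6% by counts. The log2 ratio of Klf3 over Klf1 was 1.25 by counts. It reversed to -0.56 on the GENCODE M21 length, a setting chosen after seeing the data. That setting, a lower bound for Klf3, moved the Klf3 share to 30.7% and the Klf1 share to 45.2%. Under posterior mean values the leading transcript share was 85.1% for Klf4, 81.9% for Klf7, 86.7% for Klf11 and 63.2% for Klf13, and by counts it was 94.5% for Klf13. Members over 2-fold apart numbered 5 with ERCC scaling (Klf2, Klf6, Klf7, Klf10 and Klf11), which shifted the median of all genes by 0.62 and turned Klf13 to 0.42, against 29.0% of all genes. They numbered 1 at a minimum of 100 counts (Klf7), against 5.32% of all genes, 0 on log2(TPM + 1), against 0.631%, and 0 on log2(TPM + 0.1), against 10.3%. Without replicate 1 the members at 1 TPM numbered 4 and the genes of the KLF1 list 31, against 3181 of 21461 nuclear protein-coding genes. Without replicate 2 these numbered 3 and 30, against 2964 of 21461. The comparison between libraries needs both and has no such value. The lowest members rest on few counts, so their order is not firm. No paired analysis was possible because there is only 1 group. The causes of these changes were not tested, apart from those that the setting itself makes.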
